A study of Homo sapiens with 2 samples.

Results

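The kinases that phosphorylate SR proteins were examined as a set of 8 genes, CLK1, CLK2, CLK3, CLK4, SRPK1, SRPK2, DYRK1A and PRPF4B, among the 54261 genes listed in the count table. They were chosen by name for their known activity, by a rule that uses no measured value, although earlier results of these data were known when they were chosen. All 8 were listed, and 7 of them had a mean of at least 1 CPM (counts scaled to a common library size) over the libraries, as 12620 genes of the whole table did. CLK2 was the gene that did not reach this level. The RNA came from RKO cells, an established human colon carcinoma cell line. The first RNA-seq library was made from cells transfected with si-NC, a control siRNA, and the other from cells transfected with si-SRSF2, an siRNA of a single sequence against the splicing factor SRSF2. Both were taken 2 days after transfection, and nothing else is given as differing between them. With 1 library in each group, no difference had a replicate check and no test was made, and the knockdown library bears a number in its title that the labels do not explain.

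SR proteins are splicing factors that carry an RNA-binding domain and a tail rich in arginine and serine, the RS domain. SRPK1 and SRPK2, which are largely cytoplasmic, phosphorylate the RS domain and so favour import into the nucleus and storage in nuclear speckles. CLK1 to CLK4 are nuclear kinases of both serine or threonine and tyrosine, and their further phosphorylation releases SR proteins from the speckles to sites of transcription. DYRK1A and PRPF4B also phosphorylate splicing factors. The libraries measured the RNA of these genes and not the kinase proteins, their activity or the phosphorylation of any substrate.

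Depth was 19931360 counts with si-NC and 14512802 with si-SRSF2, spread over 19882 and 19467 genes. A gene with no count could still have had up to 3 counts, or 0.151 CPM with si-NC and 0.207 CPM with si-SRSF2. Mitochondrial genes took 4.45% and 4.82% of the counts. SRSF2, the targeted gene, had 1964 counts with si-NC and 713 with si-SRSF2, so that 49.9% of its CPM in si-NC was left. It shares 823 exonic bases with a protein-coding gene on the opposite strand. Whether the counting used the strand is not given, so reads in those bases could not be assigned with certainty. Of 9 epithelial markers, EPCAM, KRT8, KRT18 and CDX2 were measured at or above 1 CPM, while CDH1 had 10 and 6 counts, KRT19 and VIL1 had 1 count in each library, and KRT20 and LGALS4 had none. Summed over the 9, the level was 79.4 CPM with si-NC and 97.01 CPM with si-SRSF2. KRT8 went from 27.4 to 42.6 CPM, a log2 ratio of 0.62 (0.47 to 0.80), while the intervals of EPCAM, KRT18 and CDX2 held 0. None of 11 markers of leukocytes, fibroblasts and endothelial cells reached 1 CPM, and their summed level was 1.40 and 1.38 CPM.

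The siRNA is shown first, because the kinase transcripts were searched for matches to it. The listed strand has the sense of the SRSF2 mRNA, so that the complementary strand is the one that pairs with the target. Both are given without their overhangs, 5′ to 3′, with the seed (bases 2 to 8) in capitals.
si-SRSF2, strand complementary to the target: aUCGCGACcuggauuugga
si-SRSF2, listed strand: uCCAAAUCcaggucgcgau

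A match over the whole length of 19 bases was found at position 769 of the canonical SRSF2 transcript, and no other counted gene had one. The 7-base site that pairs with the seed of the complementary strand, GTCGCGA, was in 0.259% of the 10427 3′ UTRs of genes at or above 1 CPM and in the 3′ UTR of none of the 8 kinases. It was present in the coding sequence of PRPF4B and in the 5′ UTR of SRPK2, which are shown beside the target with the site in capitals.
SRSF2, coding sequence, site from base 780 to 786: tccaaatccagGTCGCGAtcgaagagtccc
PRPF4B, coding sequence, site from base 980 to 986: tgaaagtagaaGTCGCGAtcgaggtaaaaa
SRPK2, 5′ UTR, site from base 79 to 85: cccgcgtcgccGTCGCGAagccccccgccc

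The site for the other strand, GATTTGG, was more common, in 14.8% of 3′ UTRs. DYRK1A, whose 3′ UTR is 13827 bases long, had 5 of these sites, and PRPF4B, with 4367 bases, had 1. The 3′ UTRs of the other 6 kinases held neither site. SRSF2 itself held GATTTGG in its 3′ UTR, from base 1084 to 1090. The first DYRK1A site and the PRPF4B site are shown with GATTTGG in capitals.
DYRK1A, 3′ UTR, site from base 4037 to 4043: ttggccttatgGATTTGGactcgaaattag
PRPF4B, 3′ UTR, site from base 5732 to 5738: ttcagcattatGATTTGGgttttattggtg

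The seed of the control siRNA was searched in the same way, since the ratio has si-NC as its base. Its listed strand pairs with TCGAAGA, which was in 1.66% of the 3′ UTRs and in 1 kinase 3′ UTR, that of CLK1. SRSF2 itself held TCGAAGA once in its coding sequence, from base 787 to 793, and once in its 3′ UTR, from base 901 to 907. CLK4 had the same site at 2 places of its coding sequence, and the 3′ UTR of DYRK1A had 1 site, TGTCACG, for the other strand of the control siRNA. These matches are descriptions of sequence, and whether any of them acted on a transcript was not tested.

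Among the kinases, the values moved little between the libraries. Of the 7 at or above 1 CPM, none was 2-fold higher or lower in si-SRSF2, as 1.35% of all 12620 genes were. None was at least 25% higher, a limit that 11.8% of all genes passed. CLK3 alone was at least 20% lower, the same fold in the other direction, as were 13.3% of all genes. The 95% Clopper-Pearson interval of the ratio, which covers counting error only, lay wholly below 1 for CLK1, CLK3, SRPK2 and PRPF4B, so for 4 of 7, against 26.7% of all genes, and wholly above 1 for none, against 21.0% of all genes. With upper-quartile factors or a 99% interval PRPF4B was no longer among them and 3 were left. Of the 7, 6 had a log2 ratio below 0, counting SRPK1 at -0.0021, and DYRK1A had one above 0. The median log2 ratio was -0.09 over the 7 kinases and -0.12 over all 8, beside -0.02 over all genes, of which 53.8% were lower in si-SRSF2. With so few genes these counts describe the set and do not set it apart from other genes.

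**Figure D1:**
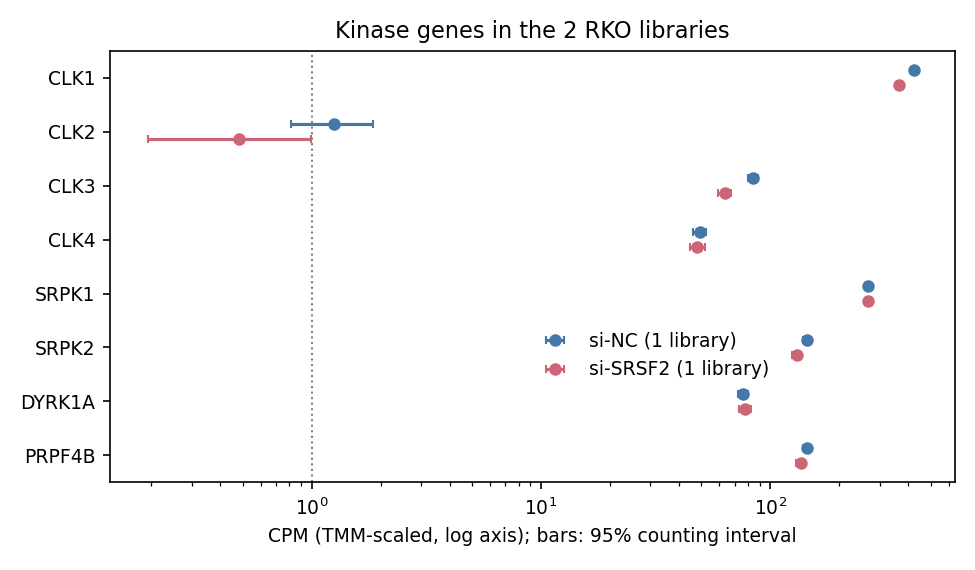
Level of each of the 8 kinase genes in the si-NC and si-SRSF2 libraries, as TMM-scaled CPM on a log axis, with bars for the 95% counting interval and a dotted line at 1 CPM. CLK1 goes from 424 to 365 CPM, CLK3 from 84.1 to 63.4 CPM and SRPK2 from 144.5 to 130.1 CPM with intervals that do not overlap. SRPK1 is the same in both within its interval, and CLK2 lies far to the left of the others.

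CLK1 lies on the minus strand at chr2:200853009-200864691 of GRCh38, with 13 exons in its canonical transcript. It had 8449 counts with si-NC and 5301 with si-SRSF2, or 424 and 365 CPM. The level in si-SRSF2 was 86.2% of that in si-NC (95% Clopper-Pearson interval 83.2% to 89.2%), a log2 ratio of -0.21 (-0.26 to -0.17). This difference was beyond counting error, and 22.8% of all genes at or above 1 CPM had a ratio as low or lower.

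CLK3, at chr15:74598500-74645414 on the plus strand, had the lowest ratio of the 7. Its counts were 1676 with si-NC and 920 with si-SRSF2, or 84.1 and 63.4 CPM. It was thus at 75.4% of the si-NC level (69.5% to 81.7%), a log2 ratio of -0.41 (-0.53 to -0.29), and 8.57% of all genes were as low or lower. CLK3 shares 701 exonic bases with EDC3, a gene of mRNA decapping on the opposite strand. EDC3 had 931 and 709 counts, a log2 ratio of 0.06 (-0.08 to 0.21). Whether the authors' counting used the strand is not given in the sources used here, so reads in the shared bases could not be assigned with certainty.

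CLK4, the closest relative of CLK1, lies on the minus strand at chr5:178602664-178630615. It had 979 counts with si-NC and 698 with si-SRSF2, or 49.1 and 48.1 CPM. Its level was 97.9% of that in si-NC with an interval of 88.7% to 108%, so that no difference was detectable at this depth. CLK4 shares 161 exonic bases on its own strand with RN7SKP70, a 7SK pseudogene with 15 and 35 counts. Of the 31-base stretches of the CLK1 transcript 0.220%, and of those of CLK4 0.162%, occurred elsewhere on the primary chromosomes. Because the search was in genome sequence, stretches across exon junctions were not covered. At their own gene 81.0% of the stretches of CLK1 and 86.0% of those of CLK4 were found. The 2 transcripts were not compared with each other directly.

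Comparing the CLK genes with each other within a library does not depend on how the libraries were scaled. CLK1 took 75.9% of the 11129 counts on CLK1 to CLK4 in si-NC (75.1% to 76.7%) and 76.5% of 6926 in si-SRSF2 (75.5% to 77.5%), intervals that overlap. The share of CLK3 was 15.1% (14.4% to 15.7%) and 13.3% (12.5% to 14.1%), and that of CLK4 was 8.80% (8.28% to 9.34%) and 10.1% (9.38% to 10.8%), so neither pair of intervals overlapped. In pairs, the log2 ratio of CLK1 exceeded that of CLK3 by 0.19 (0.07 to 0.32), and that of CLK3 stood below that of CLK4 by -0.38 (-0.56 to -0.19). The difference of CLK1 from CLK4 was -0.18 (-0.33 to -0.03). These intervals are from the exact conditional odds ratio of the 4 counts, and each leaves out 0.

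The promoters of the measured CLK genes are shown from RefSeq on GRCh38.p14, each 300 bases long, 250 before the start and 50 after it, on the gene's strand. They are shown because CLK3 and CLK1 had the lowest ratios of the 7 and CLK4 a ratio near 0. TGACG, the core of the element bound by CREB and ATF factors, was searched on both strands, and its reverse complement CGTCA is in capitals.
CLK1 promoter, chr2:200864609-200864908, minus strand: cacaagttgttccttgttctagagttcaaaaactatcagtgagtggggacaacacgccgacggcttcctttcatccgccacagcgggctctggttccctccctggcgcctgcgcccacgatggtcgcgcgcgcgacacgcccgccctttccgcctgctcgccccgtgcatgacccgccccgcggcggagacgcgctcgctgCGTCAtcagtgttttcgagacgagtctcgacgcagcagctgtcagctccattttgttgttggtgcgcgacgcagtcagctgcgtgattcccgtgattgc
CLK3 promoter, chr15:74615586-74615885, plus strand: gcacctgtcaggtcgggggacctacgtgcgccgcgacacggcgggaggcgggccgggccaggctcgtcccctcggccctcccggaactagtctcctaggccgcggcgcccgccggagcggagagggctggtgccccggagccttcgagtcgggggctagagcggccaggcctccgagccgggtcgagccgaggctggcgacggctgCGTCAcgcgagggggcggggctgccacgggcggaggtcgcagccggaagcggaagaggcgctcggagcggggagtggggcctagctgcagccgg
CLK4 promoter, chr5:178627001-178627300, minus strand: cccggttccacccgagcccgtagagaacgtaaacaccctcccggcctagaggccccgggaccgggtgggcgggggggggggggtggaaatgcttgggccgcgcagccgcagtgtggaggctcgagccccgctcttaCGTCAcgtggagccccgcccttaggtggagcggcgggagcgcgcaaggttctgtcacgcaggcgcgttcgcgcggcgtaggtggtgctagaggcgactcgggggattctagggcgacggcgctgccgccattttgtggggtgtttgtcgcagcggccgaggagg

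The motif was thus present in all 3 of these promoters and in 4 of the 7 kinase promoters in the table, the other being that of DYRK1A with 2 matches, against 35.8% of the 8835 promoters of genes at or above 1 CPM. CACGTG, the E-box of MYC and USF factors, was in the promoters of CLK2, CLK4 and DYRK1A and in 10.3% of all. GGGCGG, the GC box of SP factors, was in all 7 and in 75.1% of all. CCGGAA, which reads as an ETS site, was in that of CLK3 alone and in 32.7% of all. In the CLK4 promoter CGTCA and CACGTG overlap. PRPF4B was not matched to a promoter. Whether any of these motifs goes with the ratios was not tested.

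CLK2 was counted at a level at which its ratio says little. It had 25 counts with si-NC and 7 with si-SRSF2, or 1.254 and 0.482 CPM, and the level in si-SRSF2 was 38.4% of that in si-NC with an interval from 14.04% to 91.4%. The log2 ratio with the pseudocount of 0.5 CPM was -0.84. CLK2 is a gene on the minus strand at chr1:155262868-155278491, and the protein-coding genes directly next to it were also nearly empty. SCAMP3, which encodes a secretory carrier membrane protein, had 7 and 1 counts, HCN3, a pacemaker channel gene, had 1 and 0, and PKLR, the pyruvate kinase of liver and red cells, had none. Beyond them FDPS, an enzyme of the mevalonate pathway, had 2533 and 1474 counts, RUSC1 821 and 505, and MTX1 387 and 240.

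**Figure D2:**
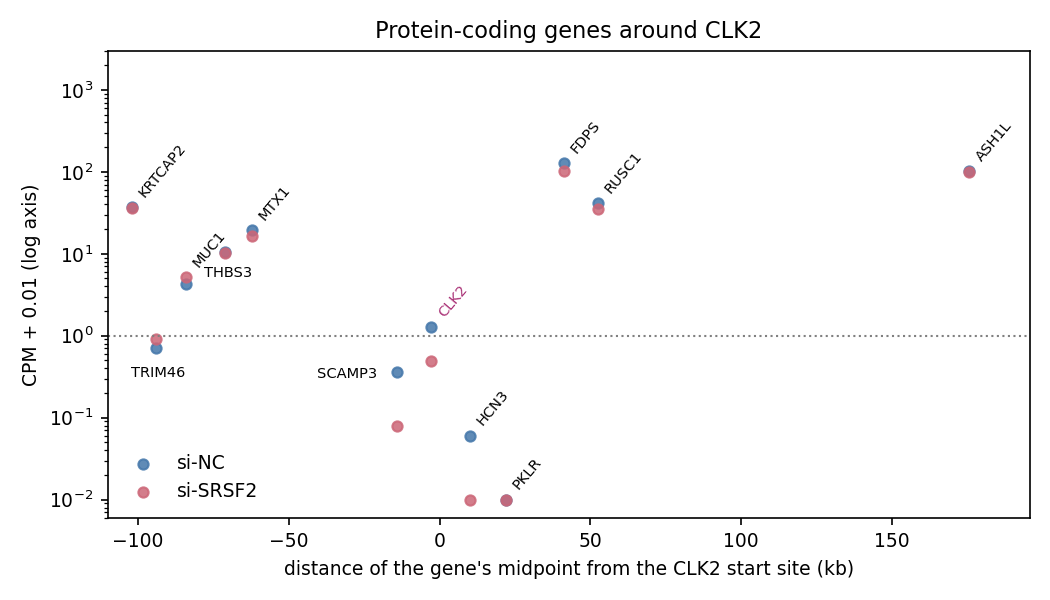
CPM (plus 0.01, log axis) of the 12 protein-coding genes within 100 kb of CLK2, including those that reach into that window, against the distance of each gene's midpoint from the CLK2 start site in kb. SCAMP3, CLK2, HCN3 and PKLR form a block at or near 0 to 1 CPM, between MTX1 at 19.4 CPM on one side and FDPS at 127 CPM on the other in si-NC.

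The transcripts of these 4 genes were largely found a second time in the GRCh38 assembly, on an alternate-locus scaffold, which is another version of a chromosomal region listed beside the primary chromosomes. Of the 2124 stretches of 31 bases in the canonical CLK2 transcript, 83.9% were found in CLK2 itself and the same 83.9% on 1 such scaffold. The share on that scaffold was 85.3% for SCAMP3, 94.9% for HCN3 and 90.8% for PKLR. It was 39.6% for MTX1 and 0 for THBS3, FDPS and RUSC1, which were counted above 1 CPM. Over all alternate-locus scaffolds together, the share was 0 for CLK1, CLK3, CLK4, SRPK1 and PRPF4B, 1.26% for SRPK2 and 2.90% for DYRK1A. CLK2 also had 18.03%, the highest share of the 8 kinases, elsewhere on the primary chromosomes, and its pseudogene CLK2P1 had 4 and 3 counts. Whether alternate-locus scaffolds were in the reference used for alignment is not given in the sources used here. Their part in the low CLK2 count was not tested, and the CLK2 values are not read here as its expression.

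SRPK1 had 5326 counts with si-NC and 3873 with si-SRSF2, or 267.2 and 266.8 CPM, and lies on the minus strand at chr6:35832966-35921342. Its level was 99.9% of that in si-NC (95.8% to 104.1%), the narrowest of the 3 intervals that held 100%. It shares 1879 exonic bases with LHFPL5 on the opposite strand, which had no count in either library. SRPK2, on the minus strand at chr7:105110704-105399308, had 2880 and 1888 counts, or 144.5 and 130.1 CPM. It stood at 90.02% of the si-NC level (84.9% to 95.4%), a log2 ratio of -0.15 (-0.24 to -0.07). SRPK2 shares 369 exonic bases with KMT2E on the opposite strand, a chromatin regulator gene with 3824 and 3268 counts and a log2 ratio of 0.23.

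The SRPK pair differed in its balance between the libraries. SRPK1 took 64.9% of the 8206 counts on the pair in si-NC (63.9% to 65.9%) and 67.2% of 5761 in si-SRSF2 (66.0% to 68.4%). The log2 ratio of SRPK1 exceeded that of SRPK2 by 0.15 (0.05 to 0.25). With 1 library each, this says that these libraries differed and not that the treatment shifted the pair.

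DYRK1A and PRPF4B were close to their si-NC levels. DYRK1A, a kinase encoded in the region of chromosome 21 linked to Down syndrome, lies at chr21:37365573-37526358 on the plus strand. It had 1522 counts with si-NC and 1124 with si-SRSF2, or 76.4 and 77.4 CPM, and its level was 101.4% of that in si-NC (93.8% to 109.6%). PRPF4B, a kinase of the spliceosome, lies at chr6:4021267-4064983 on the plus strand. It had 2876 and 1965 counts, or 144.3 and 135.4 CPM, with a level of 93.8% (88.5% to 99.4%), the interval that came closest to 100% of the 4 that stood below it.

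**Figure D3:**
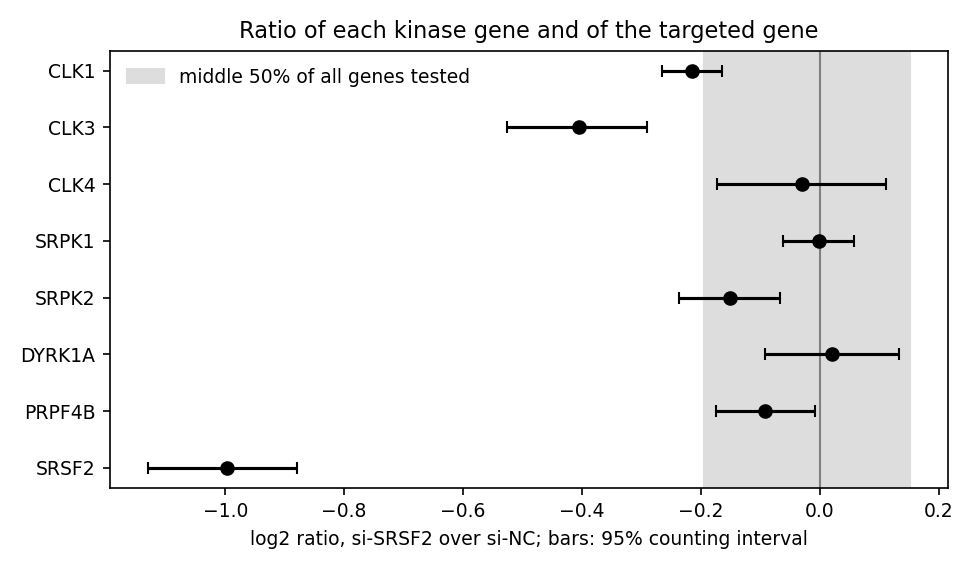
Log2 ratio of si-SRSF2 over si-NC for the 7 measured kinases and for SRSF2, with 95% counting intervals and a grey band from -0.19 to 0.15 that holds the middle 50% of all genes. CLK3 at -0.41 and CLK1 at -0.21 lie below the band, the other 5 kinases lie within it, and SRSF2 at -0.997 lies far from all of them.

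All 21 pairs of the 7 kinases were compared, and in 12 the interval of the difference left out 0. Pairs of other genes were not compared, so this count does not set the kinases apart. CLK3 was below each of the other 6, with the largest difference in log2 ratio from DYRK1A, -0.43 (-0.59 to -0.26), and the smallest from CLK1, given above. CLK1 differed from SRPK1 by -0.21, from DYRK1A by -0.24 and from PRPF4B by -0.12, and SRPK2 differed from DYRK1A by -0.17 (-0.31 to -0.03). CLK1 and SRPK2 did not differ beyond counting error (-0.06, interval -0.16 to 0.03). CLK4, SRPK1, DYRK1A and PRPF4B had no pair among themselves whose interval left out 0. The interval of CLK4 against DYRK1A ran from -0.23 to 0.13.

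Levels between genes were compared per kilobase of canonical transcript as RPKM, which is CPM divided by length in kb. In si-NC, CLK1 had the highest level, 229.5 RPKM over 1.847 kb, followed by SRPK1 with 61.5, CLK3 with 45.4 and SRPK2 with 39.3. CLK4 had 19.6 (18.4 to 20.9) and PRPF4B 19.2 (18.5 to 19.9), and these neighbours did not differ beyond counting error. DYRK1A was lowest of the 7 with 4.49 RPKM, over a transcript of 17.024 kb. In si-SRSF2 the order was the same except that SRPK2, at 35.4 RPKM (33.8 to 37.0), and CLK3, at 34.2 (32.0 to 36.5), changed places within overlapping intervals. The order depends on which transcript lengths are used, and with the union of all annotated exons CLK3 had 4.27 RPKM in si-NC, below CLK4 with 6.20 and PRPF4B with 17.1.

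The kinases of related families, and other kinases reported to act on SR proteins, were given as a list of 14 genes, of which 11 were at or above 1 CPM. Their median log2 ratio was -0.02, with 5 higher and 6 lower in si-SRSF2, beside 53.8% of all genes lower. None passed 2-fold, as 1.35% of all genes did, and the interval lay wholly above 1 for 2 and wholly below 1 for 3, beside 21.0% and 26.7%. HIPK3, a nuclear kinase, was the lowest at -0.31, with 2811 and 1647 counts, and DYRK2, of the family of DYRK1A, followed at -0.23, with 2801 and 1741. The highest were AKT1, a kinase of growth factor signalling, at 0.23 and PRKACA, the catalytic subunit of protein kinase A, at 0.09. SRPK3, the muscle form of the SRPK family, had no count, DYRK1B had 1 and 0, and HIPK4 had 2 and 8.

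The phosphatases that act against these kinases formed a list of 12 genes, of which 11 were measured. Of these, 9 were lower and 2 higher in si-SRSF2, beside 53.8% of all genes lower, with a median log2 ratio of -0.14. The interval lay wholly below 1 for 8 and wholly above 1 for 2, beside 26.7% and 21.0% of all genes, while 1 gene was at least 20% lower and 1 at least 25% higher, beside 13.3% and 11.8%. PPP1CB, a catalytic subunit of protein phosphatase 1, was the lowest at -0.52, with 4937 counts with si-NC and 2498 with si-SRSF2, and PPP2R1B, a scaffold subunit of protein phosphatase 2A, followed at -0.21. PPP1R8, a nuclear inhibitor of protein phosphatase 1, was the highest at 0.41, with 964 and 936 counts, and PPP2R1A stood at 0.11. PPP1R10, a nuclear targeting subunit, had no count in either library.

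The substrates were the SR proteins themselves. Of 14 genes 13 were measured, with 6 higher, 7 lower and a median log2 ratio of -0.04, or 0.01 over the 12 left without SRSF2, beside 53.8% lower and a median of -0.02 over all genes. The interval was wholly above 1 for 5 and wholly below 1 for 3, SRSF2 included, against 21.0% and 26.7% of all genes. SRSF8 passed 2-fold, as 1.35% of all genes did, with 274 counts with si-NC and 439 with si-SRSF2 and a ratio of 1.11 (0.92 to 1.36). SRSF5 stood at 0.32, just inside the limit of 25% higher, SRSF9 at 0.12, TRA2A at 0.11, SRSF1 at 0.10 and SRSF6 at 0.05. On the lower side were SRSF7 at -0.28, SRSF11 at -0.17, SRSF4 at -0.08, and SRSF3, SRSF10 and TRA2B at -0.04 each. SRSF12 had 1 count in si-NC and none in si-SRSF2. SRSF2 itself, at -0.997 (-1.13 to -0.88), lay at the 2-fold limit, with 49.9% of its CPM left but a ratio just inside that limit once the pseudocount was added.

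Other proteins with RS domains or known as substrates of these kinases formed a list of 17 genes, all measured. Their median log2 ratio was 0.0015, with 9 higher and 8 lower, beside 53.8% lower and a median of -0.02 over all genes. None was at least 25% higher and 4 were at least 20% lower, beside the 11.8% and 13.3% of all genes given above, and the interval lay wholly above 1 for 4 and wholly below 1 for 8, beside 21.0% and 26.7% of all genes. Besides PRPF31 and LBR, the genes at least 20% lower were SRRM1, a splicing coactivator, and the cyclin gene CCNL2, both at -0.33 and named after their values were seen. PRPF31, a protein of the U4/U6 snRNP, passed 2-fold at -1.07, as 1.35% of all genes did, but with only 34 and 8 counts. Of its 31-base stretches, 80.4% were also on alternate-locus scaffolds. Like those of CLK2, the PRPF31 values are not read here as its expression, although PRPF31 is in the list counts above. U2AF1 is in them too, with 41 and 31 counts and 82.6% of its stretches elsewhere on the primary chromosomes. LBR, the lamin B receptor, which SRPK1 phosphorylates, had -0.41, with 2469 and 1348 counts. The highest were RBM39, a splicing coactivator, at 0.14 and CCNK, a cyclin of transcription kinases, at 0.12.

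Partners of the kinases, such as the chaperones that hold SRPK1 in the cytoplasm and the importins that carry SR proteins, were 11 genes, all measured, with 8 higher, 3 lower and a median log2 ratio of 0.09, beside 53.8% lower and a median of -0.02 over all genes. The interval lay wholly above 1 for 6 and wholly below 1 for 3, beside 21.0% and 26.7% of all genes, and 2 genes were at least 25% higher and 2 at least 20% lower, beside 11.8% and 13.3%. AHSA1, a co-chaperone of HSP90, was highest at 0.42, with 2234 and 2181 counts, followed by HSP90AA1 at 0.36, with 25843 and 24177 counts. SAFB and SAFB2, nuclear scaffold proteins, were lowest at -0.35 and -0.32.

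**Figure D4:**
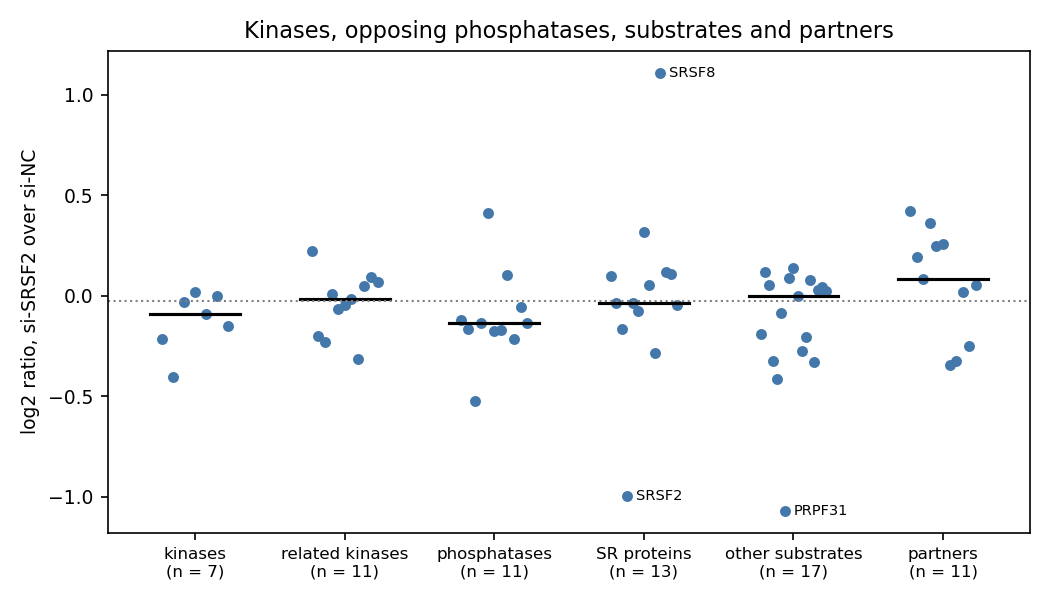
Log2 ratio of si-SRSF2 over si-NC for each measured gene of the kinases and of the 5 lists, with a bar at the median of each and a dotted line at the median of all genes. The medians run from -0.14 for phosphatases to 0.09 for partners, and SRSF8, SRSF2 and PRPF31 are the points farthest from 0.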

How the data were processed

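RNA-seq libraries of RKO cells, 1 with si-NC and 1 with si-SRSF2, were prepared by a stranded poly(A) protocol and read as 150 bp pairs. The authors trimmed the reads, aligned them to GRCh38 with HISAT2 (version 2.0.4 per the labels) and counted them per gene with HTSeq. The deposited counts were raw, with genes listed by symbol.

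CPM values used TMM library sizes (edgeR 4.0.16, R 4.3.3). The log2 ratio was taken with a pseudocount of 0.5 CPM, and genes averaging at least 1 CPM entered the comparison with all genes. Intervals were 95% Clopper-Pearson intervals of the 2 counts, computed in SciPy 1.17.1 without the pseudocount. Like the floor of 3 counts, they cover counting error only, since fragments counted without molecular identifiers are not independent molecules. The ratio and interval calculations were tested on counts simulated with counting error only and with known changes larger than those of the measured kinases. The simulated libraries were scaled by their totals, so the TMM step was not part of that test. No p-value was computed.

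Loci, exons, transcript lengths and UTRs came from GENCODE release 44, promoters from RefSeq, and copies were sought as exact 31-base matches in GRCh38. The siRNA sequences were those listed by the study.

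Members and gene lists were chosen with earlier results of these data known. Genes named were all members, SRSF2, all listed SR proteins and, from each other pathway list, the 2 highest and 2 lowest ratios, any past 2-fold and any below 1 CPM, besides genes that overlap or copy a member. The result for 1 further gene is not reported here, and that gene is in none of the lists as counted. The genes beside CLK2 were named after their values were seen. As alternatives, libraries were scaled by their totals, by upper quartiles or with DESeq2 1.42.0, the pseudocount was set to 0.1 or 2 CPM, and the minimum was raised to 5 CPM or dropped. Others were a 99% interval, and leaving out mitochondrial and the 20 most abundant genes.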

Additional observations from a re-analysis of the deposited data

How the results depend on the processing

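Of the values under the alternatives, 152 moved by less than the error or tolerance set for them, which let a count of 4 become 3, and 2 moved further. With upper-quartile factors, 2 values near 0 changed sign, SRPK1 at 0.02 and the median of the related kinases at 0.0071. Without the filter on low counts, CLK2 entered and 2 kinases in place of 1 were at least 20% lower. With the length of all annotated exons, an alternative added after seeing the data, 4 of the 7 kinases kept their place in the order of levels. PRPF4B lost its place among the intervals below 1: with upper-quartile factors or a 99% interval 3 kinases and not 4 were left. The ratio of SRPK1 ran from -0.0021 to 0.02, that of CLK3 from -0.41 to -0.38, that of CLK1 from -0.21 to -0.19 and that of CLK2 from -1.22 to -0.39. The spread between transfections is unknown, and the CLK2 ratio rests on 25 and 7 counts. No paired analysis was possible because there was a single library on each side.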

Other observations

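Several genes of the pathway lists, besides CLK2, had low or no counts and a transcript found a second time in the assembly. The genes beside them were named after their values were seen. For PPP1R10, with no count, 88.3% of the 31-base stretches of its transcript were also on alternate-locus scaffolds, and all 7 protein-coding genes within 50 kb of it had no count either, among them ABCF1 and the helicase gene DHX16. For PRPF31, with 34 and 8 counts, the share was 80.4%, and 6 of its 8 neighbours were under 1 CPM, among them NDUFA3, a subunit gene of respiratory complex I, with no count. U2AF1, the small subunit of the factor that reads the 3′ splice site, had 41 and 31 counts, and 82.6% of its stretches were elsewhere on the primary chromosomes, where its copy U2AF1L5 had 54 and 42 counts. For some low genes no such copy was found. The search covered 455 sequences of the assembly, 261 of them alternate-locus scaffolds. DYRK1B had 1 and 0 counts, and FBL, the fibrillarin gene beside it, had 31 and 10. None of their stretches were on these scaffolds or elsewhere on the primary chromosomes. A copy outside the sequences searched could not have been found. Whether the alignment reference held further sequences is not given in the sources used here. What part the copies found here had in the counts was not tested.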
